A study of Mus musculus with 9 samples.

Results

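Beta-catenin (Ctnnb1), 3 other catenins (plakoglobin, gene Jup; alpha-E-catenin, gene Ctnna1; p120-catenin, gene Ctnnd1) and 2 classical cadherins (E-cadherin, gene Cdh1; P-cadherin, gene Cdh3) were followed across pools of gastrulating mouse embryos. They form the core of the adherens junction. Their probe sets were all those whose only gene symbol in the platform's probe-to-gene tables was one of these 6, which gave 11 of 36899 probe sets. Of these, 9 lay on array design A, 0 on design B and 2 on design C. The genes were taken for their place in the junction, with earlier results of these data known.

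The RNA came from whole embryos at embryonic day 7.5 and was read on 9 one-colour Affymetrix arrays, 1 for each of 3 genotypes on each of 3 designs (MG_U74Av2, MG_U74Bv2 and MG_U74Cv2). The knockout pool held about 50 embryos that lost beta-catenin where the cytokeratin 19 promoter had switched on Cre recombinase, so the loss is conditional on that promoter. Of the control pools, one (floxed/deleted) had 1 floxed and 1 deleted Ctnnb1 allele, and the other (wild type/floxed) had 1 wild-type and 1 floxed allele. All 3 genotypes thus carried at least 1 floxed allele. Neither the Cre status nor the size of the control pools is stated in the labels.

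With 1 pool per genotype and different probe sets on each design, there was no replicate, and no test, error or p-value is given for any difference. The nearest yardstick is the difference between both control pools, which differ by 1 allele. Over measured probe sets its standard deviation on the log2 scale was 0.44 on design A (n = 7490) and 0.88 on design C (n = 8750). Among design A probe sets measured on all 3 arrays, it was 0.49 for a mean signal under 200, 0.33 from 200 to 800 and 0.22 above 800, so the dim cadherin probe sets are less precise than that of Ctnnb1. In whole-embryo RNA, fewer cells of a type cannot be told apart from less RNA per cell.

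Cadherins are transmembrane proteins that join neighbouring epithelial cells through their outer parts. Inside the cell, beta-catenin or its close relative plakoglobin binds the cadherin tail, alpha-catenin links either of them to actin, and p120-catenin holds the cadherin at the membrane. Beta-catenin also enters the nucleus, where it is the transcriptional partner of Tcf/Lef factors in canonical Wnt signalling. In the gastrulating embryo, epiblast and visceral endoderm are epithelia with E-cadherin junctions, and cells that leave through the primitive streak lose E-cadherin.

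A probe set was taken as measured if any of its 3 signals exceeded the median of its design (57.3 on A, 80.9 on C), and as measured on all arrays if each did. Values below that floor were set to it before log2 was taken. The floor is a rule of the analysis, not a detection limit, and a fold with 1 side at the floor is written "at least". Of the 11 probe sets 10 were measured and 7, all on design A, were above the floor on all 3 arrays. A call in a pool required a signal 1.5-fold or more above each of the other pools, or 1.5-fold or more below each.

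No member probe set on design A was called in the knockout, in either direction. On that design 0 of 8 measured members were called higher, where 3.26% of all measured probe sets were, and 0 were called lower, where 3.54% were. On design C, 1 of 2 was called higher (Ctnna1, background 11.9%) and 0 lower (background 8.11%). Floxed/deleted had 0 calls on design A (backgrounds 4.03% higher and 2.66% lower) and 0 on design C (14.3% and 8.79%). Wild type/floxed had 0 higher (2.56% on A, 14.2% on C) and 2 lower, which were Cdh1 on A (background 2.86%) and Ctnna1 on C (background 9.15%). With so few probe sets, these shares do not set the members apart from the rest of the arrays.

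**Figure D1:**
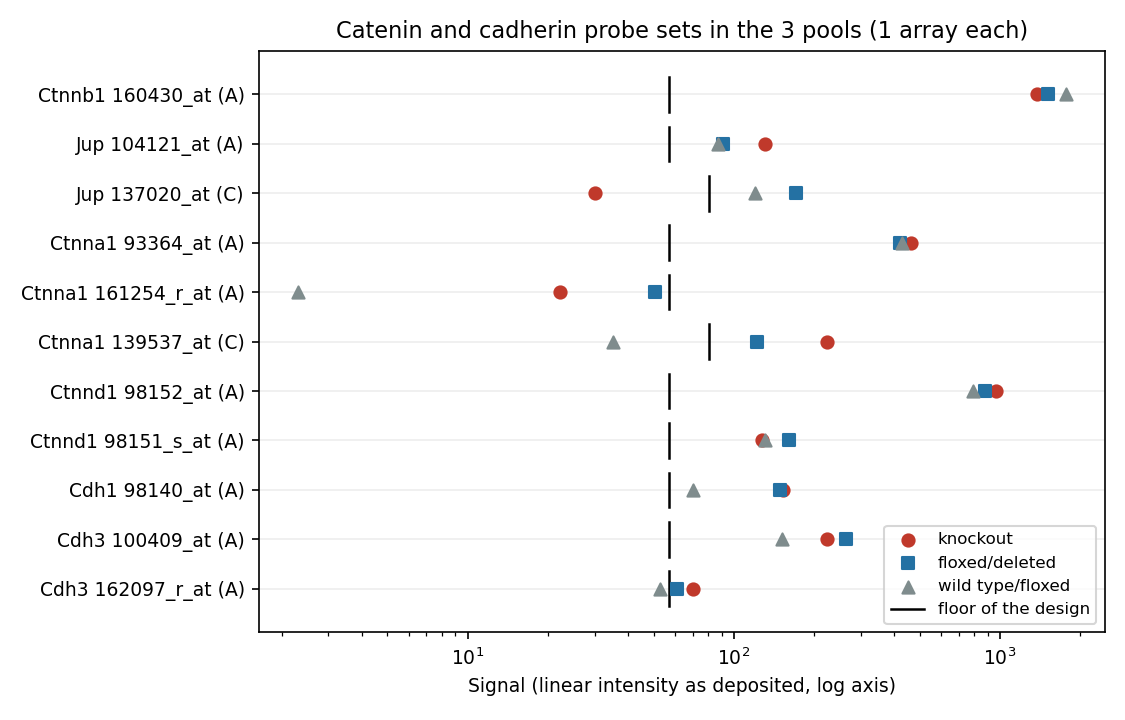
Deposited signal (linear intensity, log axis) of the 11 catenin and cadherin probe sets in the knockout (circles), floxed/deleted (squares) and wild-type/floxed (triangles) pools, 1 array per point; the vertical tick is the floor of the design, A or C, named in brackets. Ctnnb1 sits between 1376 and 1773 in all 3 pools, while Cdh1 ranges from 70.1 to 153 and the brighter Cdh3 probe set from 151 to 263, above the floor of 57.3.

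Ctnnb1, the targeted gene, was the brightest member in every pool. Its probe set (160430_at, design A) had a signal of 1376 in the knockout, 1509 in floxed/deleted and 1773 for wild type/floxed. The knockout was thus the lowest pool and wild type/floxed the highest. The steps were small. The knockout was 1.10-fold lower than floxed/deleted and 1.29-fold lower than wild type/floxed, and floxed/deleted was 1.17-fold lower than wild type/floxed. On the log2 scale the knockout stood at -0.13 from the nearer control. Among design A probe sets with a mean signal over 800 (n = 668), the median size of the difference between both controls was 0.13 and the 90th percentile was 0.35. The distance of the knockout from wild type/floxed, -0.36, lay just beyond that percentile, and that from floxed/deleted did not. Which part of the transcript the probe set covers relative to the deleted part is not stated in the labels or tables at hand, and Cre acts only in cells with cytokeratin 19 promoter activity, so this value does not check the genotype.

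The promoter windows of Ctnnb1 and Jup are shown because plakoglobin is the one catenin that can take the place of beta-catenin at cadherins. They are from RefSeq on GRCm38.p6, from 250 bases before to 50 after the annotated start, at chr9:120933150-120933449 on the plus strand (the more upstream of 2 listed starts) and chr11:100397741-100398040 on the minus strand. Capitals mark CCAAT and the GC box GGGCGG, each searched on both strands.
Ctnnb1: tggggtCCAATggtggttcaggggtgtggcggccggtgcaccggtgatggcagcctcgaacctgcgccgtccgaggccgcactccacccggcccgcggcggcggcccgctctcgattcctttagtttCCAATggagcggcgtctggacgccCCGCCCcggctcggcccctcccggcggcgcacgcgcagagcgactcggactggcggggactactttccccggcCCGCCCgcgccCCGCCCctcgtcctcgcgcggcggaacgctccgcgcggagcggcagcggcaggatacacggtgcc
Jup: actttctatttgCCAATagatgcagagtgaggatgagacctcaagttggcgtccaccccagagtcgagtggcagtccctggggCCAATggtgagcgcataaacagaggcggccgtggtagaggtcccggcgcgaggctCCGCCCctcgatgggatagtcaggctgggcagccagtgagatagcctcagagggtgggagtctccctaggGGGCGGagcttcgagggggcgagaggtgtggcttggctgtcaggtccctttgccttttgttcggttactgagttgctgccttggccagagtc
The Ctnnb1 window held 2 CCAAT matches and 3 GC boxes, and the Jup window held 2 and 2. At the other listed Ctnnb1 start, whose window is not shown, there were 0 and 3. That window overlaps the one shown, so some GC boxes are counted in both. Of 32851 windows of the same length, 37.4% held a CCAAT match and 35.7% a GC box. GC content was 75.3% for Ctnnb1 and 60.7% for Jup, against a median of 52.7%. Neither window shown held the Tcf/Lef core CTTTGA or CTTTGT (31.2% of all windows did) or the E-box CAGGTG (20.2% did). Motif matches are descriptions of the letters in these windows only.

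Jup had 2 probe sets that pointed in opposite directions. On design A (104121_at) its signal was 130 in the knockout, 91.2 in floxed/deleted and 87.0 for wild type/floxed. The knockout was the highest pool and both controls lay close together, 1.05-fold apart. The knockout was 1.43-fold higher than the nearer control, under the 1.5-fold rule. With equal medians in place of equal trimmed means it was 1.55-fold higher and passed. On design C (137020_at) the signal was 30.2 in the knockout, 171 in floxed/deleted and 120 for wild type/floxed, so there the knockout was the lowest pool and lay below the floor. It was at least 1.48-fold lower than wild type/floxed and at least 2.11-fold lower than floxed/deleted. This probe set was called lower when the floor was set at the 30th percentile, and stood level with the nearer control, at a log2 difference of 0, when it was set at the 70th. Set against the shift of Ctnnb1 (knockout minus the mean of both controls), the Jup shift differed by 0.80 on the log2 scale for the first probe set and by -0.58 for the second. These arrays therefore give no single direction for plakoglobin.

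Ctnna1, the link from the junction to actin, was close to level on its brightest probe set. On design A (93364_at) its signal was 464 in the knockout, 420 in floxed/deleted and 428 for wild type/floxed. The pools differed by 1.02-fold to 1.11-fold, within the median size of 0.20 on the log2 scale by which the controls differed at this brightness. On design C (139537_at) the signal was 225 in the knockout, 123 in floxed/deleted and 35.1 for wild type/floxed. This was the only member probe set called in the knockout, 1.83-fold higher than floxed/deleted and at least 2.77-fold higher than wild type/floxed. Raising the floor to the 70th percentile took its log2 difference from the nearer pool from 0.87 to 0.44, under 1.5-fold. The controls themselves were at least 1.51-fold apart on this probe set. The third Ctnna1 probe set (161254_r_at) stood at 22.3, 50.6 and 2.3 and was below the floor in all 3 pools, so it was not measured.

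Ctnnd1, which stabilises cadherins at the membrane, also gave 2 directions. Its brighter probe set (98152_at) had a signal of 968 in the knockout, 874 in floxed/deleted and 792 for wild type/floxed. The knockout was highest, by 1.11-fold over the nearer control. The dimmer one (98151_s_at) had 127, 162 and 131 in the same order, with the knockout lowest by 1.03-fold. Its suffix marks sequence shared between transcripts. On the log2 scale the brighter one stood 0.15 above floxed/deleted, where the controls differed by 0.14. The dimmer one stood at -0.04 from wild type/floxed, where the controls differed by 0.31.

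**Figure D2:**
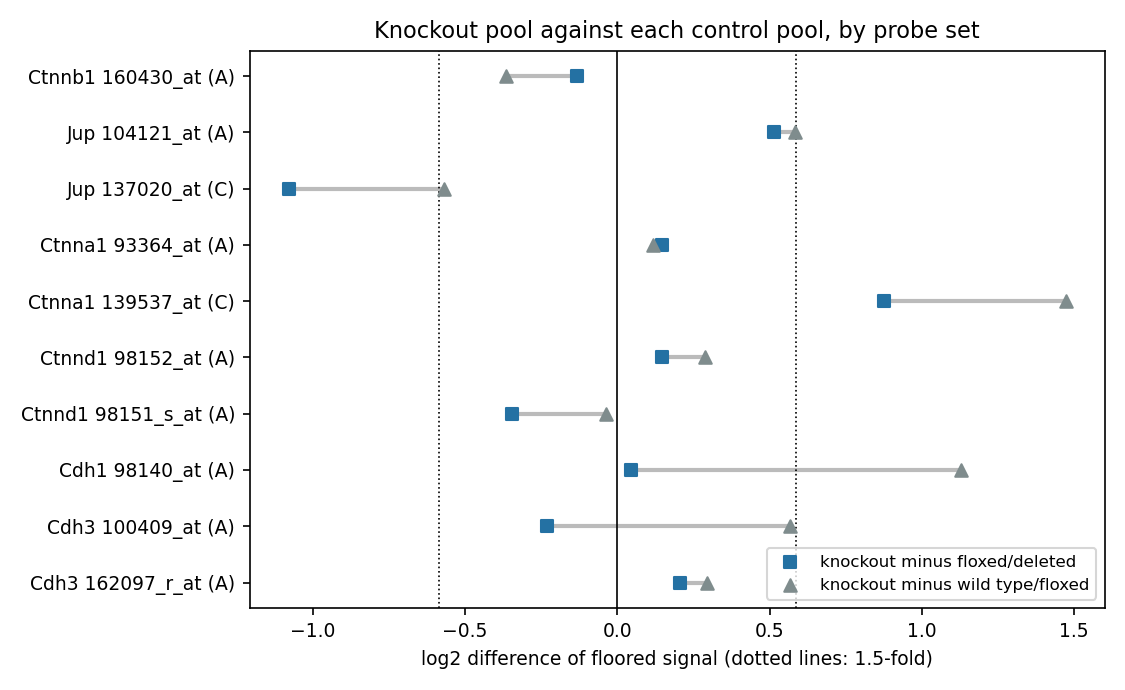
Log2 difference of the knockout from floxed/deleted (squares) and from wild type/floxed (triangles) for the 10 measured member probe sets, with values below the floor set to it; the grey bar joins both differences and dotted lines mark 1.5-fold. Only Ctnna1 on design C has both differences beyond a dotted line, and the length of a bar is the difference between the controls, 1.08 for Cdh1, 0.80 for the brighter Cdh3 probe set and 0.09 for the dimmer one.

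Cdh1 and the brighter of both Cdh3 probe sets differed more between the controls than between the knockout and floxed/deleted, while the dimmer Cdh3 probe set did not. Cdh1 (98140_at, design A) had a signal of 153 in the knockout, 149 in floxed/deleted and 70.1 for wild type/floxed. The knockout and floxed/deleted lay 1.03-fold apart, and wild type/floxed stood 2.12-fold below the nearer of them. Knockout against the mean of both controls gave a log2 difference of 0.59, but 0.04 against floxed/deleted alone and 1.13 against wild type/floxed alone. Wild type/floxed was at -1.08 on the log2 scale from the nearer pool, and at -0.15 when the floor was raised to the 70th percentile, which ended its call. For design A probe sets with a mean signal under 200, the 90th percentile of the size of the control difference was 0.79.

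Cdh3, which encodes the classical cadherin named for the placenta, lay in the same order of controls on its brighter probe set. That probe set (100409_at) had 224 in the knockout, 263 in floxed/deleted and 151 for wild type/floxed, and the knockout fell between the controls. Wild type/floxed was 1.48-fold below the knockout and 1.74-fold below floxed/deleted. The controls were thus 0.80 apart on the log2 scale. The mean signal of this probe set lay just within the range of 200 to 800. For design A probe sets in that range, the 90th percentile of the size of the control difference was 0.53. The second one (162097_r_at) had 70.3, 60.9 and 52.8, with the knockout highest by 1.15-fold and all values near the floor. Cdh1 and Cdh3 are neighbouring protein-coding genes on chromosome 8 of the RefSeq annotation. Both stood lowest in wild type/floxed, as did 6 of the 10 measured member probe sets, while 3 were lowest in the knockout and 1 in floxed/deleted. The knockout held the highest value of 6, floxed/deleted that of 3 and wild type/floxed that of 1. These orders use deposited signals, also those below the floor. The same orders were not counted over all measured probe sets, so they do not set the members apart.

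**Figure D3:**
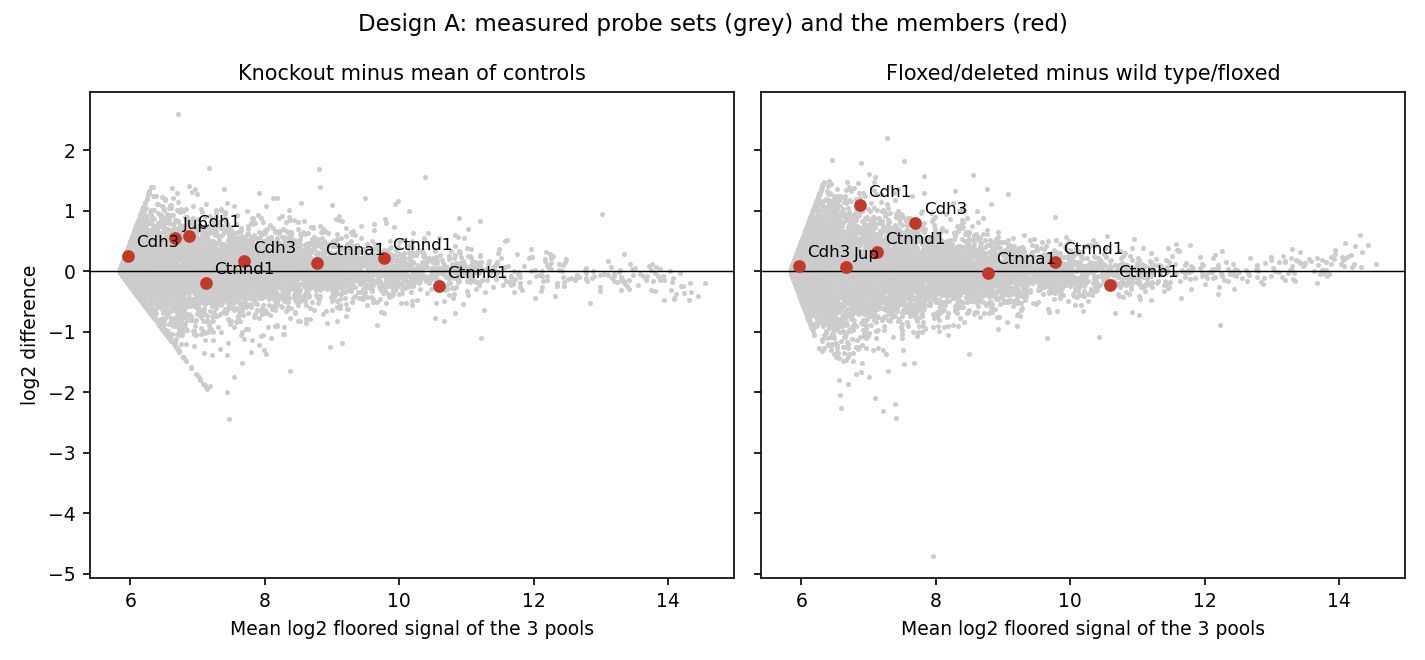
Log2 difference against mean log2 signal for the 7490 measured probe sets of design A (grey) and the 8 measured member probe sets (red, labelled); the left panel shows knockout minus the mean of both controls, the right one floxed/deleted minus wild type/floxed. Each member lies inside the grey cloud in both panels, and Cdh1 (1.08) and Cdh3 (0.80) lie nearer its upper edge on the right than on the left.

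Taking the brightest measured probe set of each gene, the median log2 difference of the 6 genes was 0.15 for knockout minus the mean of both controls and 0.33 for floxed/deleted minus wild type/floxed. Over all 12442 measured genes the medians were -0.02 and 0. The brightest Jup probe set by this rule was that on design C. With design A alone the members' medians were 0.19 and 0.10. Against floxed/deleted alone the knockout's median was -0.04, so its sign depended on the control.

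Pools differed in the tissue markers that surround these epithelial genes. The summed signal of 13 visceral endoderm markers was 49111 in the knockout, 27897 in floxed/deleted and 31621 for wild type/floxed, and 4 of the 13 were called higher in the knockout and 0 lower, where 6.45% of all measured genes were called higher and 5.68% lower. Apoa1, Amn and Apoe gave most of that sum, and the markers were not alike: Apoa1 had 16068 against 7336 and 6813 (here and below, floxed/deleted first), while Hnf4a had 422 against 380 and 469 and Lrp2 had 322 against 355 and 347. A dimmer Lrp2 probe set, on design A, had 367 against 180.5 and 223 and was called higher, so Lrp2 gave no single direction. Trf, 1 of the 4 called, had 175 against 61.5 and 43.7. It was above the floor in the knockout alone, and counted as measured only through that pool. Dab2 was called on design C (836 against 444 and 535) but on none of its design A probe sets, each highest in the knockout. Amn, not called on its brightest probe set, was called higher on another. The summed signal of 7 epiblast markers was 12684, 7195 and 5726, with 4 of the 7 called higher and 0 lower. Dnmt3b and Utf1, both called, gave most of that sum. Other measured probe sets of called genes differed. Slc7a3 (241 against 338 and 370) and Utf1 (97.7 against 126 and 109) each had one lowest in the knockout. Another of Slc7a3 was called higher, above the floor in the knockout alone. A second of Dnmt3b (4397 against 3176 and 2905) was highest in the knockout but not called. Pou5f1, Nanog and Fgf5 were not called. Of 6 blood and immune markers 3 were measured, with a summed signal of 615, 334 and 200. Their median log2 difference in the knockout was 1.01, the value of C1qb with both controls set to the floor. Of the 3, 2 were called higher, C1qb (115 against 43.7 and 30.6) and Laptm5 (446 against 271 and 109). Cd68 (54.6 against 19.4 and 60.4) was not called. A second C1qb probe set was below the floor in all pools, and the controls lay 2.48-fold apart for Laptm5. Ptprc, C1qa and Lyz2 were not measured. Krt19, the gene whose promoter drives Cre, stood at 232 in the knockout, 97.6 in floxed/deleted and 119 for wild type/floxed. On design A the beta-actin probe sets, a sign of RNA quality, gave a ratio of 5′ over 3′ signal of 0.574 in the knockout, 0.658 in floxed/deleted and 0.696 for wild type/floxed. Calls higher and lower in the knockout numbered 0 and 1 among 6 measured mesoderm markers, 2 and 0 among 8 of trophoblast, 0 and 0 among 5 of decidua, 0 and 0 among 3 of endothelium and 1 and 0 among 7 of parietal endoderm, and the endothelial markers Cdh5 and Tek were below the floor in all pools. The part of these in the catenin and cadherin values was not tested.

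The other catenin relatives and proteins that tie the junction to actin were measured for 13 of 17 listed genes. In the knockout 2 were called higher and 0 lower, where 6.45% of all measured genes were called higher and 5.68% lower. Plakophilin 3 (Pkp3), a desmosomal relative of p120-catenin, had 244 in the knockout against 29.8 and 119, 2.05-fold above the nearer control. Ctnna3, the heart and testis alpha-catenin, had 230 against 14.5 and 79.8, at least 2.84-fold higher. Neither rests on more than 1 measured probe set, and under the 70th percentile floor neither was called (0.53 for Pkp3 and 0.48 for Ctnna3 on the log2 scale). Ctnna3 was above the floor in the knockout alone, so it counted as measured only through the pool where it was high. The actin binders Lima1 (208 against 130 and 139, just short of the rule) and Actn4 (422 against 307 and 265) were highest in the knockout without being called. Pkp2 had 451 against 758 and 637, but 283 against 240 and 260 on a second probe set above the floor in all pools. Ctnnal1 had 260 against 45.3 and 186, but 147 against 203 and 109 on another. The list's median was 0.27 in the knockout and 0.15 between the controls.

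Cadherins other than Cdh1 and Cdh3 were mostly dim, with 8 of 17 measured and 3 above the floor on all arrays. N-cadherin (Cdh2), the cadherin that mesoderm takes up as it leaves the epiblast, had 90.4 in the knockout, 95.3 in floxed/deleted and 133 for wild type/floxed. Its pool order was the reverse of that of Cdh1 with respect to wild type/floxed, and the knockout was 1.05-fold below the nearer control. T-cadherin (Cdh13), which lacks the tail that catenins bind, was the 1 gene called higher (background 6.45%), with 0 called lower (5.68%), at 191 against 79.9 and 49.5, at least 2.12-fold. Both controls lay below the floor there, so it counted as measured only through the knockout, the pool where it was high. The other measured Cdh13 probe set had 118 against 105 and 84.0. Under the 70th percentile floor the first, at a log2 difference of 0.18, was not called. Cdh4 (133 against 107 and 253), Cdh8 (59.9 against 171 and 107), Cdh10 (70.7 against 18.1 and 124) and Cdh15 (8.4 against 76.4 and 44.2) were not called in the knockout. The median was -0.22 in the knockout and -0.18 between the controls.

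Nectins, the junction's second adhesion system, and desmosome genes gave 10 measured of 14 listed. Among them 0 were called higher in the knockout (background 6.45%) and 1 lower (5.68%). Periplakin (Ppl), a desmosomal linker to keratin filaments, had 56.9 in the knockout against 140 and 110, at least 1.92-fold lower, and its log2 difference was 0 under the 70th percentile floor. Nectin1 stood at 2304 against 1608 and 1609, with both controls level and the knockout 1.43-fold higher, but a second measured probe set had 256 against 414 and 287. Nectin2 (822 against 418 and 600), Nectin3 (239 against 181 and 194, but highest in a control on its 3 other measured probe sets) and the desmosomal cadherin Dsc2 (559 against 362 and 410) were highest in the knockout under the 1.5-fold rule, and Perp had 89.0 against 85.5 and 51.8. The median was 0.27 in the knockout and -0.03 between the controls. With the floor at the 30th percentile it was -0.0054, so its sign rested on that choice.

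Enzymes that phosphorylate, dephosphorylate or turn over the cadherin complex were measured for 14 of 17 genes. Src, a kinase that phosphorylates catenins, was the 1 called higher in the knockout (background 6.45%) and 0 were lower (5.68%). Its signal was 591 in the knockout against 386 and 169, 1.53-fold above the nearer control. With quantile normalization that difference was 0.58 on the log2 scale, just short of the rule, and the controls lay further apart than that. A second Src probe set was below the floor in all pools. Csk, which restrains Src, had 185 against 363 and 244. Yes1 had 85.3 against 57.7 and 48.4, and Fyn 181 against 38.3 and 174. The E-cadherin sheddase Adam10 had 64.6 against 133 and 66.6, and the E-cadherin ubiquitin ligase Cbll1 had 9.5 against 152 and 104, but 111 against 56.3 and 12.2 on a second probe set. The list's median was -0.02 in the knockout.

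Transcriptional repressors of E-cadherin were measured for 6 of 8 genes, with 0 called higher (background 6.45%) and 2 lower (5.68%) in the knockout. Twist1, a factor of mesenchyme, had 21.1 in the knockout against 161 and 187, at least 2.81-fold below the nearer control. Under the 70th percentile floor it stood at -0.26 on the log2 scale and was not called. Tcf4, which here is the E-protein E2-2 and not the Wnt effector Tcf7l2, had 122 against 324 and 295, 2.42-fold lower. Its 2 other measured probe sets were above the floor in wild type/floxed alone. Snai1, the repressor that acts at the primitive streak, had 201 against 203 and 124, and was, like Cdh1, lowest in wild type/floxed. Snai2 had 50.8 against 68.3 and 92.0, Zeb1 51.3 against 72.2 and 68.7, and Tcf3 (the E-protein E2A) 393 against 298 and 209. A second measured Tcf3 probe set had 71.3 against 7.6 and 73.2, with the knockout between the controls. The list's median was -0.38 in the knockout and 0.10 between the controls, and -0.046 in the knockout under the 70th percentile floor.

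Readouts of the nuclear role of beta-catenin were measured for 8 of 9 genes, with 0 called higher (background 6.45%) and 3 lower (5.68%), which were Cdx1 (9.1 against 208 and 237), Ccnd1 (135 against 444 and 316) and Notum (616 against 1068 and 1093). Of 2 other measured Ccnd1 probe sets, one was also called lower (136 against 259 and 270) and one was not (127 against 42.8 and 154). Not called were Dkk1 (77.8 against 91.3 and 115), Lef1 (768 against 1058 and 800), Nkd1 (268 against 373 and 141), Axin2 (336 against 292 and 436) and Sp5 (737 against 994 and 706), although another Nkd1 probe set (105 against 272 and 371) and another of Lef1 (185 against 386 and 317) were called lower. Another Axin2 probe set (75.8 against 160 and 94.6) was lowest in the knockout but was not called. The median was -0.33. The Ctnnb1 signal itself, in the same RNA, was 1.10-fold below the nearer control.

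**Figure D4:**
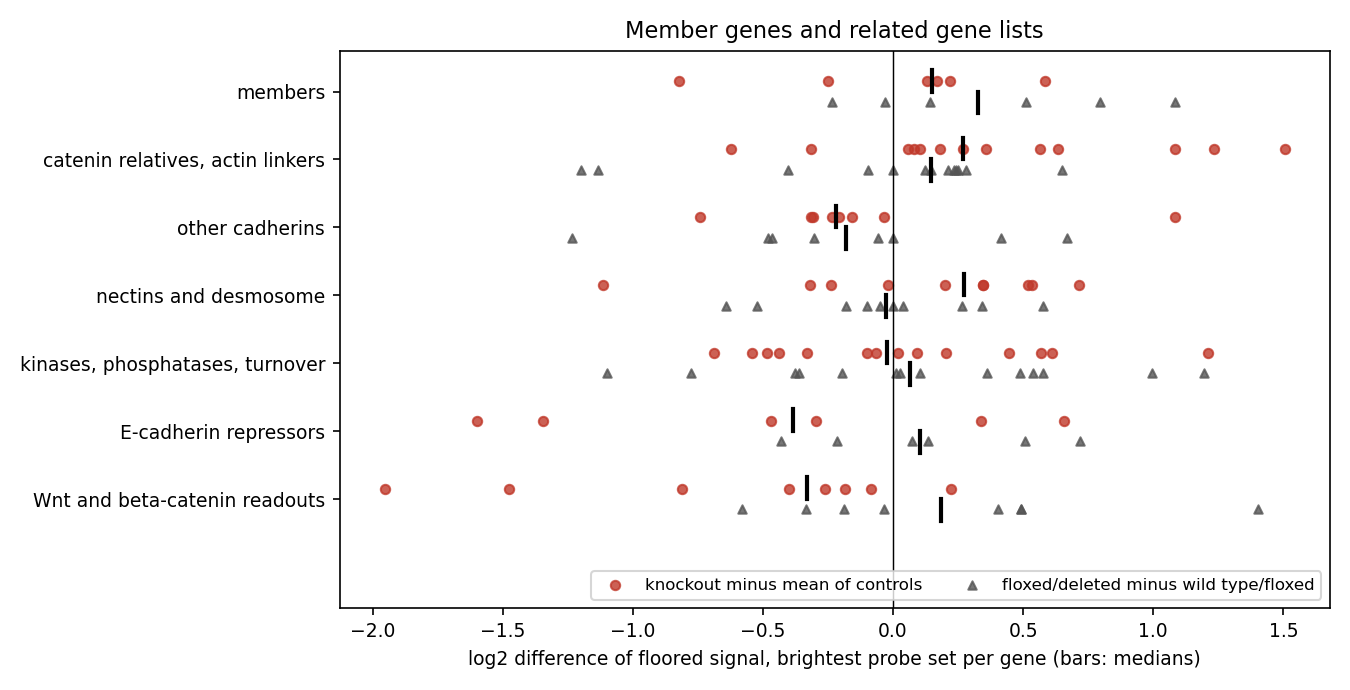
Log2 differences of each gene (brightest measured probe set) in the 6 member genes and 6 related lists; circles are knockout minus the mean of both controls, triangles floxed/deleted minus wild type/floxed, and bars are the medians. The members span -0.82 to 0.59 in the knockout and -0.23 to 1.08 between the controls. The -0.82 is Jup on design C with its knockout signal set to the floor. The design A probe set of Jup, not plotted here, stood at 0.55. The 4 lowest knockout values belong to Cdx1, Twist1, Ccnd1 and Tcf4.

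The probe sets most like Ctnnb1 over the 3 pools were sought among 493 of similar brightness on design A, by the distance between centred log2 values. The nearest was that of Copb2 (distance 0.024), with 1048 in the knockout, 1135 in floxed/deleted and 1318 for wild type/floxed. Fn1 (0.029), Laptm4a (0.035), Nedd4 (0.036) and Sec61b (0.039) followed, and 28 of the 493 lay within 0.1. For Cdh1, among 2488 probe sets, they were Mpp1 (0.054), Nav1 (0.074), Miip (0.086), Gpank1 (0.11) and Penk (0.12), with 3 within 0.1. Likeness over 3 arrays describes these pools only.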

How the data were processed

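The files held intensity on a linear scale, 1 value per probe set, as the authors deposited it. The sources used here do not give how probes were summarised and scaled. The 2% trimmed mean lay near 150 on all 9 arrays. The number of arrays limits precision. Chip types were read from the experiment files.

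Within a design, arrays were scaled to equal trimmed means, floored at the pooled median and taken to log2 (Python 3.11.15, numpy 2.4.6, pandas 2.3.3). One probe set per gene, the brightest measured, stood for it in lists. Symbols came from the platform annotation, through gene identifiers of GRCm38.p6, and 0 changed. From each list, genes called in the knockout and up to 6 with the largest difference from the mean of both controls were named; Axin2, Sp5 and the tissue markers named were chosen after their values were seen. The calculation was tested on simulated data in which only probe sets with a signal above 800 were changed. The simulated noise was smaller than the spread between the controls, so that test does not cover dim probe sets. Members and lists were chosen with earlier results of these data known. Alternatives covered floor, scaling, threshold, probe sets, controls and design, and those for lists and called genes were added after seeing the data.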

Additional observations from a re-analysis of the deposited data

How the results depend on the processing

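No paired analysis was possible because each genotype had 1 pool per design. The count of member probe sets called in the knockout was 1. It became 2 when the floor was at the 30th percentile or absent, with equal medians and with either control alone, became 0 when the floor was at the 70th, on design A alone and at 2-fold, and 3 at the looser of both other thresholds. The median of the 6 genes ranged from -0.04 to 0.24 over its alternatives, all within 0.33 (the median size of the control difference over all genes) of the value above. A pair of list medians moved further. That of the E-cadherin repressors was -0.046 under the 70th percentile floor, and that of the Wnt readouts was -0.73 with that floor and -0.70 on design A alone. The cause was not tested. Of 434 single probe set values under the alternatives, 365 kept within that size (or, for called values, kept their call), 58 moved further and 11 lost a call. The call of Ctnna1 as lower in wild type/floxed was also lost with equal medians (-0.56) and quantile normalization (-0.56).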
